A study of Homo sapiens with 16 samples.

Results

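Prostaglandin E2 is a lipid signal that many epithelial and stromal cells make and release. The genes described here are 10 of those that make it, move it across the plasma membrane, inactivate it or receive it, taken as the rows of the deposited tables whose gene symbol is PTGS1, PTGS2, PTGES, PTGES2, PTGES3, SLCO2A1, ABCC4, HPGD, PTGER2 or PTGER4. All 10 were present among the 21453 gene symbols in the tables. Of these, 7 reached at least 1 RPKM (reads divided by transcript length in kilobases and library size in M reads) in at least 2 libraries and were tested, as were 13827 genes in all; PTGS1, HPGD and PTGER2 stayed under that level and are described by their values.

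T-47D is an established line of estrogen receptor-positive breast cancer cells and ECC-1 an established line of endometrial cancer cells, so each tissue is represented by a single line. Before treatment both spent 5 days in RPMI-1640 without phenol red and with 10% charcoal-treated serum, a medium poor in steroid hormones. Each line then received 10 nM 17β-estradiol, 100 nM genistein (a plant isoflavone), 100 nM bisphenol A (a monomer of plastics) or the vehicle, 0.02% DMSO, for 8 h. The 8 combinations of line and treatment have 2 polyA RNA libraries each, 16 in all, and the treatments within a line are set against the same 2 DMSO libraries. The labels do not say that replicates were separate cultures, and each p-value therefore measures only how far these particular libraries spread, which may be technical.

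In the pathway, phospholipases release arachidonic acid from membranes and the cyclooxygenases, PTGS1 and PTGS2, turn it into the unstable precursor that all prostanoids share. Prostaglandin E synthases convert that precursor to prostaglandin E2: PTGES is the inducible, glutathione-dependent membrane enzyme, while PTGES2 and PTGES3 are broadly expressed. ABCC4 is an efflux pump that exports prostaglandins, and SLCO2A1 is the prostaglandin transporter that takes them up again, so that HPGD, a dehydrogenase in the cytosol, can inactivate them. The receptors encoded by PTGER2 and PTGER4 raise cyclic AMP through the stimulatory G protein. In endometrium the pathway is known for its part in implantation and menstruation, and in breast cancer PTGS2-derived prostaglandin E2 is known to raise aromatase in neighbouring stroma.

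Promoter sequences are shown for 4 genes on which the results below turn: PTGES, which rose in T-47D cells, ABCC4, which rose in ECC-1 cells, and PTGS2 and PTGER4, whose levels stood far apart between the lines. They come from RefSeq (GRCh38.p14), run 5′ to 3′ on the gene's strand from 250 bases before to 50 bases after the annotated start, and 9 of the 10 genes matched an entry (SLCO2A1 did not). Capitals mark the SP1 GC box (GGGCGG) and the TATA box (TATAAA) on either strand. PTGES lies at chr9:129752993-129753292 on the minus strand, ABCC4 at chr13:95301402-95301701 on the minus strand, PTGS2 at chr1:186680374-186680673 on the minus strand and PTGER4 at chr5:40679665-40679964 on the plus strand.
PTGES: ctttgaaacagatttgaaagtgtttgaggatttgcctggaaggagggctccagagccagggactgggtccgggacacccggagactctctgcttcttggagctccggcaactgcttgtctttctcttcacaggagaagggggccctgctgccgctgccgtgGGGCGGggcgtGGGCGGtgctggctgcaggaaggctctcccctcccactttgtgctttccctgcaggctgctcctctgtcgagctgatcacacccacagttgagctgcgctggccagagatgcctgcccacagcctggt
ABCC4: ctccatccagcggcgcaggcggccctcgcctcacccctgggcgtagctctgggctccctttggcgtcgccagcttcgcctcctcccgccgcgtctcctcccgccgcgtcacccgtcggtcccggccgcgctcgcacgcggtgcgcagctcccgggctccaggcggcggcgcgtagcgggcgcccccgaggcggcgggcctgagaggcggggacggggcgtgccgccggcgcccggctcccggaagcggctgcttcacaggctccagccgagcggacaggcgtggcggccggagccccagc
PTGS2: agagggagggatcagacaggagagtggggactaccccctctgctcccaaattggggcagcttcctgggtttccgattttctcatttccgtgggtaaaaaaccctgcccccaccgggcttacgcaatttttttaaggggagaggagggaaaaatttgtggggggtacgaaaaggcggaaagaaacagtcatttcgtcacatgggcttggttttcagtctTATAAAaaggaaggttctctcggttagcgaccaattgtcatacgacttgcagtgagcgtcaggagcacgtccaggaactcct
PTGER4: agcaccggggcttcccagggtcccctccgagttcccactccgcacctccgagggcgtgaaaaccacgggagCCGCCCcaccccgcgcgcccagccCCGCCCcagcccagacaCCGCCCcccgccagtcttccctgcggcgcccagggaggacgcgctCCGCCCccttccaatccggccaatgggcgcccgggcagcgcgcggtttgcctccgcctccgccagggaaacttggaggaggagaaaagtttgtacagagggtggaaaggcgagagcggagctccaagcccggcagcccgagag

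The PTGES promoter held 2 GC boxes, at positions -89 and -78 relative to the start, and PTGER4 held 4 on the opposite strand, at -179, -155, -138 and -93. The PTGS2 window had no GC box but a TATA box at -32, and the ABCC4 window, at 79.7% G and C, had neither. Of 35116 promoters of the same length, 45% held the GC box and 11.5% the TATA box. The palindromic estrogen response element (GGTCANNNTGACC, both strands) was in 0.057% of all promoters and the cyclic AMP response element (TGACGTCA) in 1.85%, and none of the windows of the 9 matched genes held either. The 5 letters GGTCA, which form each arm of the estrogen response element, were in 37.4% of promoters and, among these genes, in alternative promoters of PTGS1, PTGES2 and HPGD. A match of letters is a description of the window, not evidence of a binding site.

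The libraries held an estimated 17.4 to 29.4 M reads, read off the steps between low RPKM values. RPKM were scaled between libraries by factors of 0.938 to 1.054, and all levels below are scaled RPKM, a measure per transcript length. The 5 luminal breast markers summed to 854 to 1137 scaled RPKM in T-47D libraries and 5.31 to 7.44 in ECC-1 libraries. The 5 endometrial markers summed to 0.439 to 0.745 in T-47D and 328 to 372 in ECC-1. Of the luminal markers, PIP was at 0 in every ECC-1 library, while FOXA1 and TRPS1 averaged 1 scaled RPKM or more there. Of the fibroblast, leukocyte and endothelial markers, only COL1A1, LYZ and, in ECC-1, VWF averaged 1 scaled RPKM or more over the libraries of a line. Replicate 1 of the estradiol group stood apart from the other libraries in both lines: its median correlation with the libraries of its line was 0.980 in T-47D and 0.987 in ECC-1, against 0.989 to 0.997 for the others. Over all tested genes, the log2 difference between the 2 libraries of a group had an SD of 0.411 for estradiol in T-47D. It was 0.343 for estradiol in ECC-1 and 0.170 to 0.242 in the other groups. The tests below take 1 spread per gene from all groups. Intervals and p-values for estradiol may therefore look more certain than its libraries allow. Of 7 genes known to respond to estrogen, chosen with earlier results of these data known, 6 were raised by estradiol and 6 by genistein in T-47D cells. CXCL12 rose by 3.88 and 3.51 and GREB1 by 2.30 and 1.84 on the log2 scale. In ECC-1 cells 3 and 2 of the 7 rose with those compounds. Of all tested genes, 3.22% and 0.803% were called in T-47D and 1.89% and 0.969% in ECC-1. With bisphenol A none of the 7 passed in either line. There 0.195% of all tested genes were called in ECC-1 and 0% in T-47D. In bulk RNA, fewer cells carrying a transcript and less of it per cell cannot be told apart.

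**Figure D1:**
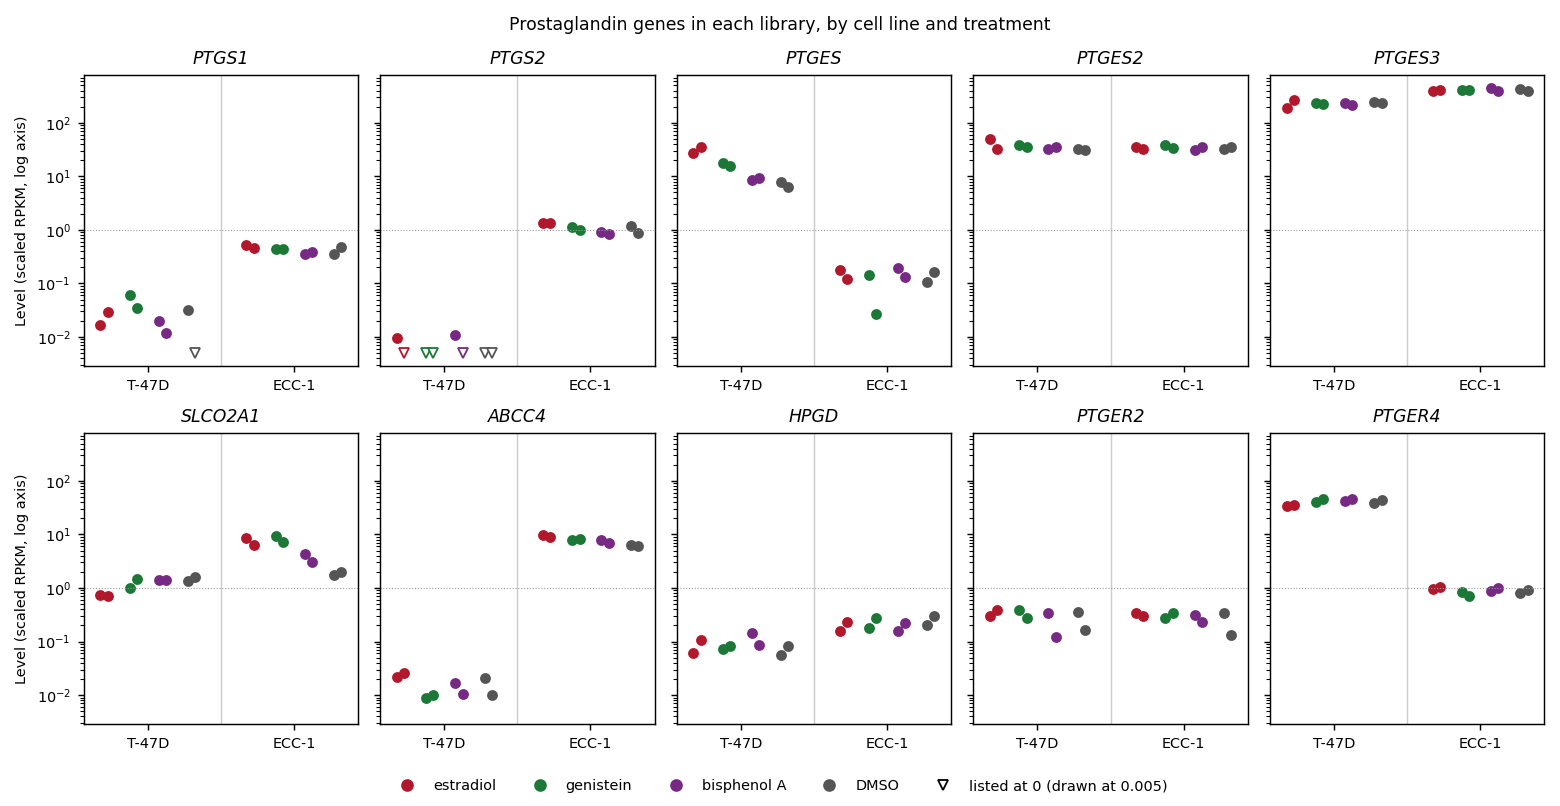
Level of each of the 10 prostaglandin genes in every library (scaled RPKM, log axis), with T-47D at the left and ECC-1 at the right of each panel; each point is 1 library, coloured by treatment, and open triangles mark libraries listed at 0. PTGES rises with estradiol and genistein in T-47D cells and SLCO2A1 in ECC-1 cells. PTGES, PTGER4, ABCC4, PTGS1 and PTGS2 lie far apart between the 2 lines.

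The plot of all libraries shows how unlike the 2 lines were in the make-up of the pathway. In vehicle-treated T-47D cells the order of mean levels was PTGES3 (237), PTGER4 (41.6), PTGES2 (32.0), PTGES (7.10), SLCO2A1 (1.49), PTGER2 (0.258), HPGD (0.0706), PTGS1 (0.0157), ABCC4 (0.0152) and PTGS2 (0). PTGS1, ABCC4 and PTGS2 were all at or near 0 and cannot be ordered, and the libraries of the other neighbours did not overlap. In vehicle-treated ECC-1 cells the order was PTGES3 (409), PTGES2 (33.5), ABCC4 (6.22), SLCO2A1 (1.87), PTGS2 (1.02), PTGER4 (0.867), PTGS1 (0.419), HPGD (0.249), PTGER2 (0.236) and PTGES (0.135). Of those neighbours, PTGS2 and PTGER4, HPGD and PTGER2, and PTGER2 and PTGES overlapped between libraries. T-47D cells carried PTGES and PTGER4 RNA beside almost no cyclooxygenase or ABCC4 RNA. ECC-1 cells carried ABCC4 RNA and a low level of cyclooxygenase RNA beside almost no PTGES. The other prostaglandin E synthase genes, PTGES2 and PTGES3, were abundant in both lines.

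Between the lines in DMSO, 5 of the 7 tested genes passed the test: PTGES and PTGER4 were higher in T-47D, and PTGS2, PTGES3 and ABCC4 were lower. That share is near the background, since 76.7% of all tested genes differed between the lines in either direction (39.6% higher and 37.1% lower in T-47D), so it says nothing particular about prostaglandin genes. PTGES passed the filter on low values through T-47D alone, and PTGS2 and ABCC4 through ECC-1 alone. A difference between the lines was therefore largely built into their calls. The median difference, T-47D minus ECC-1, was -0.26 on the log2 scale over the 7 genes and 0.04 over all tested genes. The tests are limma's, on log2(scaled RPKM + 0.5) with Benjamini-Hochberg adjustment over all tested genes and an adjusted p under 0.05 as the threshold; on that scale changes of low genes are understated.

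**Figure D2:**
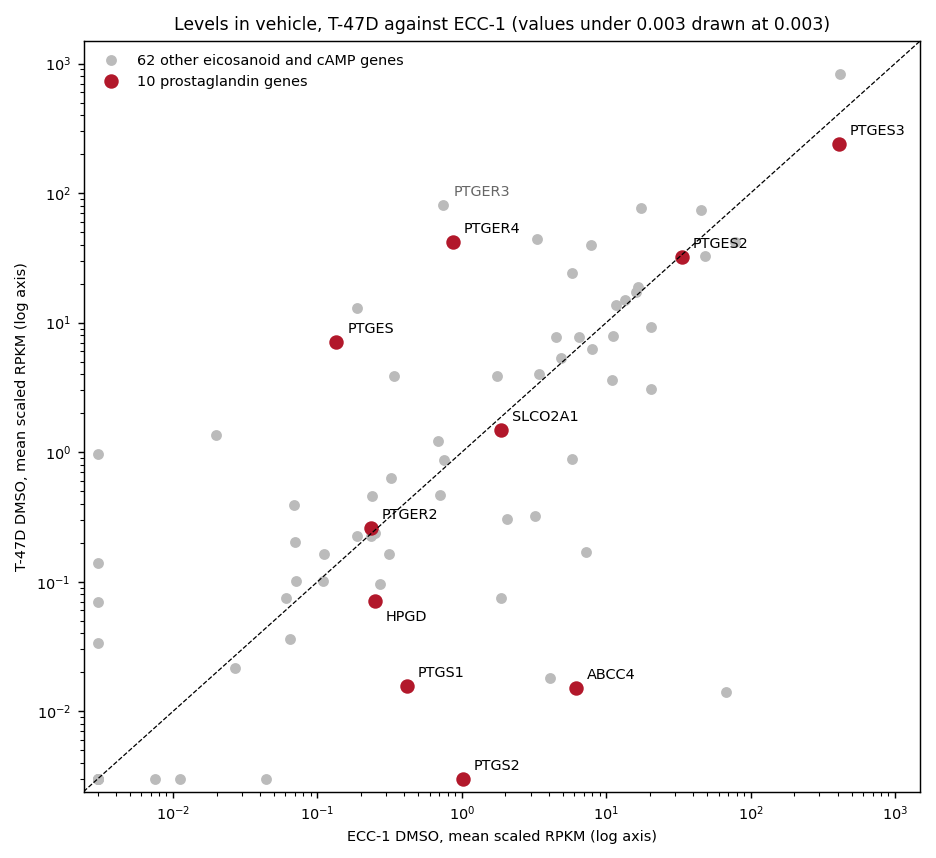
Mean level in T-47D DMSO (vertical axis) against ECC-1 DMSO (horizontal axis), both in scaled RPKM on log axes with 2 libraries per mean, for the 10 prostaglandin genes (red) and 62 other eicosanoid and cyclic AMP genes (grey); the dashed line marks equal levels. PTGES, PTGER4 and the further receptor gene PTGER3 lie far above the line, PTGS1, PTGS2 and ABCC4 far below it, and PTGES2, SLCO2A1 and PTGER2 close to it.

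The cyclooxygenases were ECC-1 transcripts in these data. PTGS2, the inducible enzyme, had 0 reads in 6 of the 8 T-47D libraries, including both DMSO libraries, and 1 read in replicate 1 of the estradiol and of the bisphenol A group. In ECC-1 cells it had 1.36 and 1.33 scaled RPKM with estradiol, 1.15 and 1.01 with genistein, 0.930 and 0.846 with bisphenol A and 1.17 and 0.874 with DMSO, which is 96 to 124 reads per library. A count of 0 allows up to 3 reads, or 0.0263 to 0.0402 scaled RPKM in those T-47D libraries, a limit for counting error only.

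No fold is given for PTGS2 between the lines, because T-47D DMSO was at 0; the fitted difference of -1.60 (limma, adjusted p = 2.12e-08) depends on the 0.5 added before taking logs. Its 2 estradiol libraries in ECC-1 lay above both DMSO libraries, with a log2 difference of 0.28 (95% interval 0.00 to 0.56) that did not pass the test (limma, adjusted p = 0.318). With genistein and bisphenol A the libraries overlapped those with DMSO.

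PTGS1, the constitutive cyclooxygenase, was low everywhere. T-47D libraries had 0 to 6 reads, up to 0.0599 scaled RPKM, and ECC-1 libraries 39 to 74 reads, or 0.352 to 0.532 scaled RPKM. The 2 ranges did not overlap, and no treatment separated the ECC-1 libraries from DMSO. Where the filter on low values was dropped, PTGS1 was lower in T-47D DMSO than in ECC-1 DMSO by a log2 difference of -0.83 (limma, adjusted p = 5.98e-07). PTGS1 lay under the 0.5 added before taking logs in all DMSO libraries, so that value depends on it.

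Among the prostaglandin E synthases, PTGES changed with treatment and differed between the lines. In T-47D cells it had 26.8 and 35.8 scaled RPKM with estradiol, 17.9 and 15.5 with genistein and 8.41 and 9.16 with bisphenol A, against 7.92 and 6.28 with DMSO. Both estradiol and both genistein libraries lay above both DMSO libraries, the genistein libraries above both bisphenol A libraries, and the bisphenol A libraries just above those with DMSO. In ECC-1 cells the same transcript had 1 to 9 reads per library, 0.0268 to 0.196 scaled RPKM, and the treatments overlapped.

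PTGES rose with estradiol in T-47D cells, averaging 31.3 ± 6.37 with estradiol and 7.10 ± 1.15 with DMSO (SD, n = 2 each). The log2 difference was 2.06 ± 0.168 (SE; limma, adjusted p = 4.49e-06). It was the single gene of the 7 tested that passed, while 3.22% of all tested genes were called with estradiol in this line (2.1% higher and 1.11% lower). PTGS2 and ABCC4 had at most 3 reads in any T-47D library and passed the filter through ECC-1 alone, so neither could have been called in T-47D, and the count of 7 is not read against that share. Without replicate 1 of the estradiol group in both lines the difference was 2.26 (adjusted p = 2.4e-05).

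Of the 3 tested fibroblast markers, LUM, an extracellular matrix proteoglycan, was called lower with estradiol in T-47D cells, with 0.558 and 0.643 scaled RPKM with estradiol against 1.13 and 1.11 with DMSO (log2 difference -0.56; limma, adjusted p = 0.0186). The 5 fibroblast markers together summed to 16.9 and 31.8 in those estradiol libraries and 19.8 and 20.6 with DMSO, and none was at 0 in every T-47D library. No other marker of another cell type was called with a treatment in either line. Whether LUM has a part in the PTGES result was not tested.

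Genistein also raised PTGES in T-47D cells. Its mean was 16.7 ± 1.73 with genistein and 7.10 ± 1.15 with DMSO (SD, n = 2 each), a log2 difference of 1.18 ± 0.168 (SE; limma, adjusted p = 0.00164). Here 1 of the 7 tested genes passed, beside 0.803% of all tested genes (0.781% higher and 0.0217% lower). As with estradiol, the count is not read against that share. The call was lost when 0.1 in place of 0.5 was added before taking logs (1.23, adjusted p = 0.0671).

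With bisphenol A, PTGES averaged 8.78 ± 0.528 in T-47D cells against 7.10 ± 1.15 with DMSO, a log2 difference of 0.30 with a 95% interval of -0.06 to 0.65. It did not pass the test (limma, adjusted p = 1). Neither did any of the 13827 tested genes in that comparison (background 0%), while 116 had an unadjusted p under 0.05. Leaving out replicate 1 of bisphenol A gave 3 calls over all genes; every other alternative gave 0.

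Genistein and bisphenol A were given at the same dose and time, and over the 7 tested genes in each line 14 differences were compared. PTGES was higher with genistein than with bisphenol A in T-47D cells, by a log2 difference of 0.89 (95% interval 0.53 to 1.24; limma, adjusted p = 0.0292), where 0.405% of tested genes passed (0.383% higher and 0.0217% lower). That call was lost in 11 of 28 alternatives, 8 of which leave out a single library. Those were either DMSO or bisphenol A library of ECC-1 (0.89 in each case, adjusted p = 0.0509 to 0.0517), bisphenol A 1 (0.83) or 2 (0.94) and genistein 1 (0.78) or 2 (0.99) of T-47D. Estradiol was given at 10 nM, and its values stand beside theirs without a comparison.

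PTGES2 was nearly level. It had 50.6 and 33.0 scaled RPKM with estradiol, 37.7 and 35.3 with genistein and 33.0 and 35.8 with bisphenol A in T-47D, against 32.9 and 31.2 with DMSO. The ECC-1 libraries ranged from 31.6 to 39.2, within the T-47D range. The difference between the lines in DMSO was -0.06 (95% interval -0.41 to 0.28; limma, adjusted p = 0.731). These values are of a non-coding RefSeq transcript, the one with the highest mean. In T-47D every treated library lay above both DMSO libraries, some only just. In the coding transcript bisphenol A (27.6 and 31.0) and estradiol (42.1 and 27.8) overlapped DMSO (28.5 and 26.5) in T-47D. Genistein (31.6 and 30.4) lay above DMSO there.

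The value of 50.6 belongs to replicate 1 of estradiol in T-47D, a library that stood apart across all genes. With both replicates the log2 difference of estradiol from DMSO was 0.35 (limma, adjusted p = 0.333). Without replicate 2, which leaves only the library that stood apart, it was 0.65. Without replicate 1 in both lines it was 0.04.

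PTGES3, which also encodes the Hsp90 co-chaperone p23 of steroid receptor complexes, was the most abundant of the 10 transcripts. It ranged from 187 to 270 scaled RPKM in T-47D libraries and from 387 to 451 in ECC-1 libraries, and the lines did not overlap. Its log2 difference between the lines in DMSO was -0.78 (limma, adjusted p = 0.000237), but under quantile normalization it was -0.25 and did not pass (adjusted p = 0.228). Its log2 differences from DMSO were -0.08 to 0.04, and none passed. The -0.08 of estradiol in T-47D averages libraries at 187 and 270, the lowest and the highest of that line, and it was 0.18 without estradiol 1 and -0.34 without estradiol 2. The annotation lists 5 pseudogenes of PTGES3 by name, and the sources used here do not say how reads shared with them were assigned, so its level is uncertain.

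Both transporters rose in ECC-1 cells. SLCO2A1, the uptake carrier, had 8.61 and 6.43 scaled RPKM with estradiol, 9.17 and 7.09 with genistein and 4.32 and 3.08 with bisphenol A, against 1.73 and 2.02 with DMSO. All 6 treated libraries lay above both DMSO libraries, and both genistein libraries above both bisphenol A libraries. In T-47D cells it had 0.747 and 0.703 scaled RPKM with estradiol, 1.01 and 1.47 with genistein and 1.42 and 1.44 with bisphenol A, against 1.36 and 1.62 with DMSO.

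**Figure D3:**
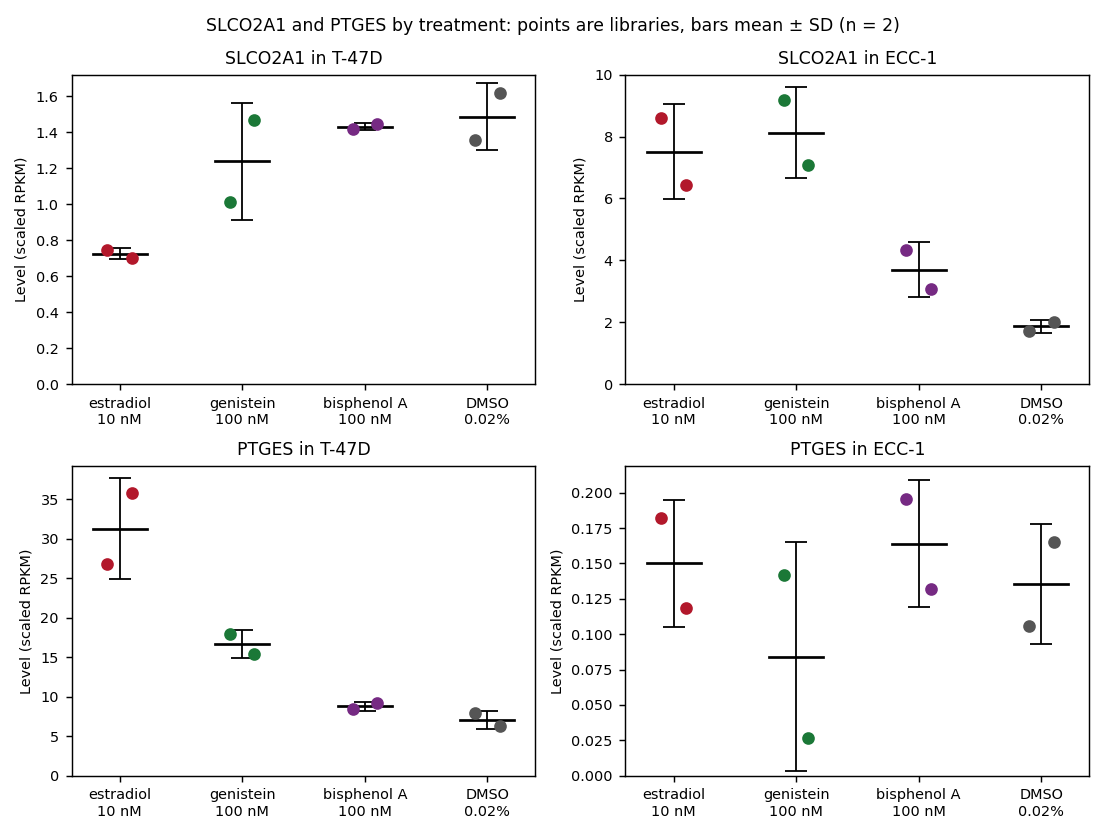
Level of SLCO2A1 (upper panels) and PTGES (lower panels) by treatment in T-47D (left) and ECC-1 (right), in scaled RPKM on linear axes that start at 0 and differ between panels; points are libraries and bars the mean ± SD of 2 libraries. SLCO2A1 is high in the estradiol and genistein libraries of ECC-1 and low in the estradiol libraries of T-47D, and PTGES is high in the estradiol and genistein libraries of T-47D while it stays under 0.2 in ECC-1.

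SLCO2A1 rose with estradiol in ECC-1 cells, averaging 7.52 ± 1.54 with estradiol and 1.87 ± 0.204 with DMSO (SD, n = 2 each), a log2 difference of 1.75 ± 0.188 (SE; limma, adjusted p = 6.58e-05). It and ABCC4 were 2 of 7 tested genes called higher, while 1.89% of all tested genes were called (1.42% higher and 0.477% lower). PTGES, at 1 to 9 reads in this line, had passed the filter through T-47D alone, so the count is not read against that share. Without replicate 1 of estradiol in both lines the difference was 1.55 (adjusted p = 0.00137). The median log2 change over the 7 genes was 0.13, beside 0 over all tested genes.

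With genistein in ECC-1 cells SLCO2A1 averaged 8.13 ± 1.48, against 1.87 ± 0.204 with DMSO (SD, n = 2 each). The log2 difference was 1.86 ± 0.188 (SE, limma, adjusted p = 3.93e-05). The rise was the 1 call among the 7 genes, beside 0.969% of tested genes (0.81% higher and 0.159% lower). That count, too, is not read against the share. Across 27 alternatives each, both rises kept their call, with adjusted p of 4.72e-05 to 0.00326 for estradiol and 4.89e-07 to 0.00193 for genistein.

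With bisphenol A, SLCO2A1 averaged 3.70 ± 0.877 in ECC-1 cells, against 1.87 ± 0.204 with DMSO. Both libraries lay above both DMSO libraries, but the log2 difference of 0.81 (95% interval 0.41 to 1.21) did not pass the test over all genes (limma, adjusted p = 0.207). None of the 7 genes passed with bisphenol A, where 0.195% of tested genes did, all of them higher, and 347 had an unadjusted p under 0.05. With array weights SLCO2A1 did pass (0.81, adjusted p = 0.0237).

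At the matched dose, SLCO2A1 differed between genistein and bisphenol A in ECC-1 by a log2 difference of 1.04 (95% interval 0.64 to 1.44), which did not pass (limma, adjusted p = 0.0891) in a comparison where only 0.0434% of tested genes did. In T-47D the same difference was -0.16 (95% interval -0.56 to 0.24; limma, adjusted p = 1). A p over the threshold does not show that the compounds act alike. The ECC-1 difference passed in 4 alternatives, among them the fit with the replicate number as a block (adjusted p = 0.0409).

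In T-47D cells SLCO2A1 did not rise. Both estradiol libraries lay below both DMSO libraries, with means of 0.725 ± 0.0312 and 1.49 ± 0.185 (SD, n = 2 each), but the log2 difference of -0.69 (95% interval -1.10 to -0.29) did not pass (limma, adjusted p = 0.0616). It passed with the replicate number as a block (-0.69, adjusted p = 0.035) and when estradiol 1 or estradiol 2 of ECC-1 was left out (-0.69 each, adjusted p = 0.0463 and 0.0458). The genistein libraries overlapped those with DMSO (-0.20, 95% interval -0.60 to 0.20), as did the bisphenol A libraries (-0.04, 95% interval -0.44 to 0.36).

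ABCC4, the export pump, was an ECC-1 transcript. T-47D libraries had 1 to 3 reads each, 0.00871 to 0.0259 scaled RPKM, at or under the level that 3 reads give. ECC-1 cells had 9.98 and 8.83 scaled RPKM with estradiol, 7.84 and 8.42 with genistein and 7.95 and 6.91 with bisphenol A, against 6.32 and 6.12 with DMSO. All 6 treated libraries of ECC-1 lay above both DMSO libraries, and the fitted difference of T-47D from ECC-1 in DMSO was -3.71 (limma, adjusted p = 6.24e-13), a value that depends on the 0.5 added.

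ABCC4 rose with estradiol in ECC-1 cells, averaging 9.40 ± 0.815 with estradiol and 6.22 ± 0.144 with DMSO (SD, n = 2 each), a log2 difference of 0.56 ± 0.125 (SE; limma, adjusted p = 0.0328). Its other RefSeq transcript had 8.69 and 7.26 scaled RPKM with estradiol, against 5.09 and 5.60 with DMSO. This call was lost in 11 of 27 alternatives. Among them were array weights (0.56; limma, adjusted p = 0.227) and 0.1 in place of 0.5 added before taking logs (0.59; limma, adjusted p = 0.146). The others left out DMSO 1 (0.58), DMSO 2 (0.53), estradiol 1 (0.47), genistein 1 or genistein 2 (0.56 each) of ECC-1. They also left out DMSO 1, DMSO 2 or genistein 2 of T-47D (0.56 each), or estradiol 1 of both lines (0.47).

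Genistein gave ABCC4 a log2 difference of 0.36 from DMSO in ECC-1 (95% interval 0.09 to 0.63) and bisphenol A 0.24 (95% interval -0.03 to 0.50). Neither passed (limma, adjusted p = 0.341 and 1). The difference between genistein and bisphenol A was 0.12 (95% interval -0.14 to 0.39), with overlapping libraries.

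HPGD, which inactivates prostaglandins after uptake, was low in both lines. Levels ran from 0.0572 to 0.143 scaled RPKM in T-47D libraries and from 0.155 to 0.294 in ECC-1 libraries, so the lines did not overlap. With the filter on low values dropped, HPGD was lower in T-47D DMSO by a log2 difference of -0.39 (limma, adjusted p = 0.00221). In ECC-1 each treatment overlapped DMSO, and its changes there, fitted without the filter, were -0.12 to -0.04 on the log2 scale. In T-47D both bisphenol A libraries (0.143 and 0.0876) lay above both DMSO libraries (0.0572 and 0.0840), with a log2 difference of 0.11 (95% interval -0.09 to 0.30) that did not pass (limma without the filter, adjusted p = 1). Estradiol and genistein overlapped DMSO there.

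The receptor genes differed from each other. PTGER4 had 34.4 and 36.2 scaled RPKM with estradiol, 41.0 and 45.8 with genistein and 42.2 and 45.0 with bisphenol A in T-47D, against 39.5 and 43.7 with DMSO. ECC-1 libraries held 0.698 to 1.05 scaled RPKM, far below every T-47D library. In DMSO the means were 41.6 ± 2.97 in T-47D and 0.867 ± 0.0991 in ECC-1 (SD, n = 2 each), with a log2 difference of 4.94 ± 0.125 (SE; limma, adjusted p = 2.51e-14).

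With estradiol both T-47D libraries had less PTGER4 than both DMSO libraries, but the log2 difference of -0.23 (95% interval -0.50 to 0.04) did not pass (limma, adjusted p = 0.42). The other treatments overlapped DMSO in both lines, apart from estradiol in ECC-1 (0.13, 95% interval -0.14 to 0.40), whose libraries lay just above. PTGER4 overlaps TTC33 on the opposite strand and has 2 pseudogenes by name, and the libraries keep no strand, so some of its reads cannot be assigned with certainty.

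PTGER2, the other receptor coupled to cyclic AMP, had 0.122 to 0.388 scaled RPKM in T-47D libraries and 0.132 to 0.347 in ECC-1 libraries. The lines and the treatments overlapped throughout. Dropping the filter gave a difference of 0.05 between the lines in DMSO (95% interval -0.33 to 0.42; limma, adjusted p = 0.875). Of the 2 receptor genes, PTGER4 had the higher level per length in all 16 libraries.

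**Figure D4:**
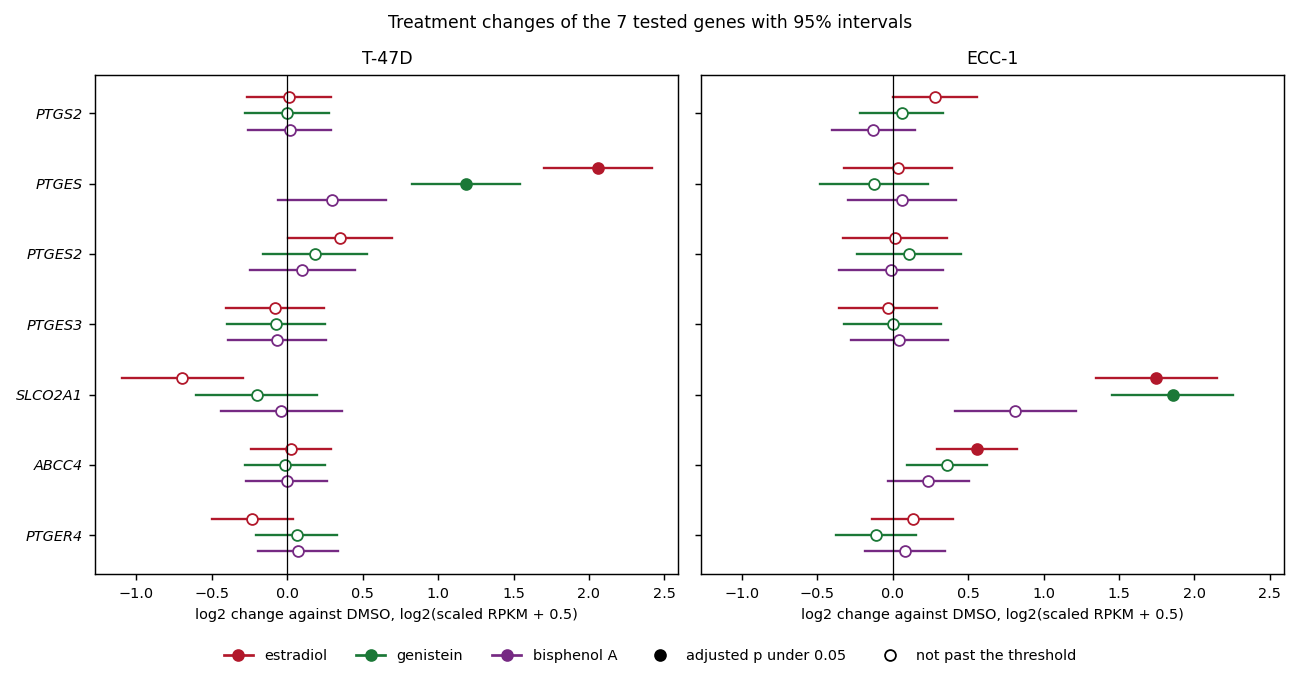
Log2 change against DMSO, on log2(scaled RPKM + 0.5), of the 7 tested prostaglandin genes in T-47D (left) and ECC-1 (right), with 95% intervals; colours give the treatment and filled points passed the adjusted threshold. The filled points are PTGES with estradiol and genistein in T-47D (2.06 and 1.18), SLCO2A1 with estradiol and genistein in ECC-1 (1.75 and 1.86) and ABCC4 with estradiol in ECC-1 (0.56).

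The fitted changes plotted against DMSO differed between the lines for PTGES and SLCO2A1, and that difference was tested itself. The estradiol response, T-47D minus ECC-1, was 2.03 ± 0.237 for PTGES (SE; limma, adjusted p = 0.000244) and -2.44 ± 0.267 for SLCO2A1 (limma, adjusted p = 0.00019). These were 2 of the 7 tested genes. The responses of 1.73% of all tested genes differed between the lines (0.89% higher and 0.839% lower in T-47D). PTGES passed the filter on low values through T-47D alone, and PTGS2 and ABCC4 through ECC-1 alone. The count is therefore not read against that share. PTGES in ECC-1 stayed at 1 to 9 reads, or 0.0268 to 0.196 scaled RPKM. These levels lie under the 0.5 scaled RPKM added before taking logs, which damps any change there. The size and p-value of the PTGES difference therefore depend on that 0.5. An equal fold change in both lines would also give a fitted difference.

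For genistein the response, T-47D minus ECC-1, was 1.31 ± 0.237 for PTGES (SE; limma, adjusted p = 0.0145) and -2.06 ± 0.267 for SLCO2A1 (limma, adjusted p = 0.00119). The background there was 0.586% (0.239% higher and 0.347% lower). The limits given above for PTGES in ECC-1 and for the count of genes apply here too. The PTGES difference was lost in 7 of 27 alternatives: without DMSO 1 (1.38), DMSO 2 (1.24) or genistein 2 (1.17) of ECC-1, without DMSO 2 (1.16) or genistein 1 (1.21) of T-47D, with 0.1 added before taking logs (1.64, adjusted p = 0.119) and with no filter on low values (1.31, adjusted p = 0.0575).

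ABCC4 had 1 to 3 reads in each T-47D library, so its response there could not be measured. The 0.5 added holds its fitted change there near 0, and its fitted difference between the lines, which passed without estradiol 2 of ECC-1 (-0.62, adjusted p = 0.044), is not read as one. For PTGES2 the estradiol response differed by 0.33 (limma, adjusted p = 0.473). It differed by 0.64 without estradiol 2 of T-47D, which leaves only the library that stood apart in that group. No gene of the 7 passed for bisphenol A, where 0.0434% of tested genes did; SLCO2A1 differed by -0.85 (95% interval -1.42 to -0.28; limma, adjusted p = 1).

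The wider pathway was described with 7 further lists of 62 genes: phospholipases A2, other prostanoid synthases, other prostanoid receptors, prostaglandin reductases, other organic anion transporters, lipoxygenase and leukotriene genes, and cyclic AMP signalling genes. Of these, 36 were tested. With a treatment, 1 passed: PTGER3, the prostaglandin E receptor that mainly couples to the inhibitory G protein, rose with estradiol in ECC-1 cells. That is 2.78% of the 36, near the 1.89% of all tested genes called in that comparison. The other 5 comparisons of a treatment with DMSO had 0 calls among the 36 genes, where 0.195% (bisphenol A) and 0.969% (genistein) of all tested genes were called in ECC-1 and 3.22% (estradiol), 0.803% (genistein) and 0% (bisphenol A) in T-47D.

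PTGER3 had 1.54 and 1.31 scaled RPKM with estradiol in ECC-1, against 0.581 and 0.893 with DMSO. Both estradiol libraries lay above both DMSO libraries, with a log2 difference of 0.65 ± 0.141 (SE; limma, adjusted p = 0.0277), and genistein gave 0.56 (adjusted p = 0.0901). The call was lost in 7 of 28 alternatives, among them leaving out DMSO 1 (0.46, adjusted p = 0.427) or estradiol 1 (0.55, adjusted p = 0.243) of ECC-1. In T-47D cells PTGER3 was far more abundant and no treatment passed.

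T-47D DMSO libraries averaged 80.5 ± 0.798 scaled RPKM of PTGER3, against 0.737 ± 0.22 in ECC-1 DMSO (SD, n = 2 each). The log2 difference was 6.04 (95% interval 5.74 to 6.34). Over the 36 tested genes of the wider lists, 14 were higher and 13 lower in T-47D DMSO than in ECC-1 DMSO, which is 75% and again near the background of 76.7%.

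The genes whose levels followed the changed genes most closely were ranked by Pearson's r over the 16 libraries on log2 values centred within each line. For PTGES these were SGK3 (0.98), ADRA2A (0.975), PDZK1 (0.965), KLK10 (0.965) and PDZK1P1 (0.964), the last a pseudogene whose reads may be shared with PDZK1. SLCO2A1 was followed most closely by FBLN1 (0.96), TRIM25 (0.953), TMEM43 (0.93), IL4R (0.927) and CILP (0.926), and ABCC4 by LONRF3 (0.965), CCND2 (0.965), BCAT1 (0.962), TLL2 (0.953) and SALL1 (0.951). ABCC4 and the 5 genes named beside it were near 0 in T-47D, so their r rests on the 8 ECC-1 libraries, and PTGES was near 0 in ECC-1, so its r rests mainly on the 8 T-47D libraries. These values describe the libraries: the points share treatments and depth, and no p is attached to them.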

How the data were processed

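The authors deposited 1 table of RPKM values per library for 32062 RefSeq transcripts; Bowtie and hg19 are the aligner and build named, per the submitters' processing notes. Counting rules and versions are not given in the sources used here. Per the labels' protocols, libraries were non-directional.

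From these values the transcript with the highest mean was kept for each symbol, and libraries were scaled by the median ratio over 7547 genes of at least 5 RPKM in every library. Genes of at least 1 RPKM in at least 2 libraries (13827) entered 1 limma fit (version 3.58.1, R 4.3.3) on log2(scaled RPKM + 0.5) with 8 group means, moderated with a trend (8 residual and 6.9 prior degrees of freedom) and Benjamini-Hochberg adjustment within each of 12 comparisons; the fit was tested on simulated data. Depth was estimated from RPKM steps and GENCODE 29 lengths: of values worth under 10 reads, 61.8% to 63.7% came within 0.1 of a whole read (20% by chance). Reads are given only for genes whose low values were whole; no count test was run. No 2 libraries were identical.

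The genes, lists and motifs were chosen with earlier results of these data known. All 10 genes are named; of the other lists, genes past the threshold with a treatment whose libraries did not overlap DMSO (up to 4 by size); for each changed gene, the 5 most alike. Replicate numbers were shared across groups. The deviations of same-numbered libraries correlated at -0.224 to 0.408, which does not settle whether the numbers pair them. The main fit used no replicate block, and a block was fitted as an alternative. Alternatives changed the pseudocount, filter, scaling, block, weights, trend, transcript choice and libraries.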

Additional observations from a re-analysis of the deposited data

Results flagged for a closer look

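For 4 results the fitted difference between the 2 lines in the response to a compound passed its own test (limma, all with Benjamini-Hochberg adjustment). For PTGES the estradiol response in T-47D minus that in ECC-1 was 2.03 on the log2 scale (adjusted p = 0.000244), and the genistein response differed by 1.31 (adjusted p = 0.0145). For SLCO2A1 the same differences were -2.44 with estradiol (adjusted p = 0.00019) and -2.06 with genistein (adjusted p = 0.00119). The PTGES difference with genistein lost its call in 7 of 27 alternatives, and the other 3 differences kept theirs in every alternative that tested them.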

How the results depend on the processing

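No result changed its direction past a threshold, and of the values under an alternative setting 2252 kept their side of the threshold, 38 lost a call and 14 gained one. Filtering at a mean of 5 RPKM removes SLCO2A1, ABCC4 and PTGS2 by construction and left 0 calls for estradiol and 0 for genistein in ECC-1, 3 between the lines, and 1 each for the estradiol and genistein responses between lines. With a pseudocount of 0.1 the calls were 1 for estradiol in ECC-1, 2 for estradiol in T-47D, 0 for genistein in T-47D, 0 for genistein against bisphenol A in T-47D and 1 for the genistein response; with a pseudocount of 1, genistein against bisphenol A in ECC-1 gave 1. Array weights gave 1 for estradiol, 1 for bisphenol A and 2 for genistein in ECC-1 and 1 for genistein against bisphenol A there. Without both estradiol 1 libraries the counts were 1 for estradiol and 1 for genistein against bisphenol A in ECC-1. Quantile normalization gave 2 for estradiol in T-47D. No filter gave 0 for genistein against bisphenol A in T-47D, as did that line fitted alone, and 1 for the genistein response. The replicate block gave 2 calls for estradiol in T-47D and 1 for genistein against bisphenol A in ECC-1, and changed no other count of these genes. Leaving out each library in turn gave 1 to 2 calls for estradiol in either line, 0 to 1 for genistein against bisphenol A in T-47D, 2 to 3 for the estradiol response and 1 to 2 for the genistein response; the cause was not tested.

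Over all genes, the alternatives gave 110 to 2148 calls for estradiol in ECC-1 (262 as reported) and 92 to 3113 in T-47D (445), 10 to 68 for bisphenol A in ECC-1 (27) and 0 to 3 in T-47D (0), 58 to 841 for genistein in ECC-1 (134) and 47 to 271 in T-47D (111), 0 to 52 and 5 to 102 for genistein against bisphenol A in ECC-1 (6) and T-47D (56), and 60 to 2202, 1 to 23 and 45 to 205 for the estradiol, bisphenol A and genistein responses between lines (239, 6 and 81). The highest estradiol counts came without estradiol 2 of the same line. Calls over all genes thus moved with the setting too. A call that 1 of the 10 genes gained or lost under an alternative is not read as particular to that gene. With 2 libraries a group the median 95% interval reached 0.33 to either side of a treatment change on the log2 scale, which limits what could be seen.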
